A study of Mus musculus with 16 samples.

Results

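Libraries of sorted haematopoietic stem cells (HSCs) differed widely in how much RNA of neutrophil granule genes they held, and the richest and the poorest library of each of 4 treatments are described here. The members were chosen on a measured value, the share of all counts that fell in 19 neutrophil granule genes, and they are 8 of the 16 libraries, 4 rich and 4 poor. The rich libraries were palbociclib 1, rapamycin 2, combination 3 and vehicle 2, and the poor libraries were palbociclib 2, rapamycin 1, combination 2 and vehicle 1. The 8 other libraries, 2 of each treatment, are called intermediate.

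All cells came from C57BL/6J mice, whose marrow was depleted of lineage-positive cells and then sorted by CD117, Sca-1, CD48 and CD150 staining. Each library was made from 10000 cells in G0/G1 with a low-input RNA kit from total RNA. The mice had received palbociclib at 30.4 mg/kg, an inhibitor of the cell cycle kinases CDK4 and CDK6, or rapamycin at 6.4 mg/kg, an inhibitor of the growth kinase mTOR, or both, or the vehicle alone. The vehicle, 20% DMSO and 40% PEG 400 in saline, was shared by all groups, and 100 uL were injected into the peritoneum every 48 h for 85 days. The age of the mice was not given in the labels used here. The labels also do not say that libraries of 1 treatment are separate mice, so any spread between them may be partly technical.

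Neutrophils are short-lived phagocytes that mature in the marrow from HSCs through multipotent and granulocyte-monocyte progenitors. They fill their granules in order: azurophil granules with myeloperoxidase and serine proteases are loaded first, in promyelocytes, and specific and gelatinase granules with lactoferrin and other antimicrobial proteins are loaded later, in more mature cells. HSCs are recognised by high CD117, Sca-1 and CD150 and low CD48, and they divide rarely. In a bulk library, more cells of a type and more RNA per cell cannot be told apart.

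The granule share was 11.01%, 7.13%, 8.01% and 7.52% in the rich palbociclib, rapamycin, combination and vehicle libraries, against 1.62%, 1.12%, 1.33% and 1.599% in the poor libraries of the same treatments. The ratio of rich to poor was 6.81, 6.36, 6.01 and 4.70 in that order of treatments, and the means were 8.42% ± 1.77 in rich and 1.42% ± 0.237 in poor libraries (SD, n = 4 each). Just inside these extremes lay rapamycin 4 at 6.93%, close to the rich rapamycin library, and vehicle 4 at 2.47%, the intermediate library nearest to a poor one. These values chose the libraries and carry no test. No library that the rule names was replaced when TPM were summed in place of counts, but azurophil genes alone would have kept 5 of the 8 and later granule genes alone 7 of the 8.

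**Figure D1:**
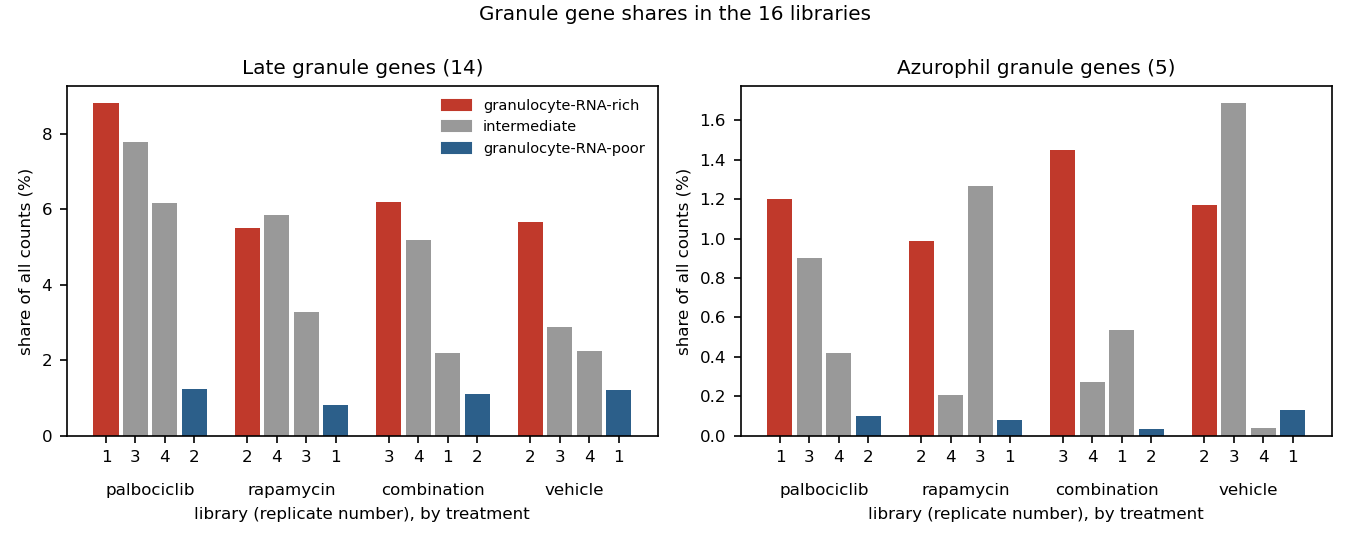
Share of all counts in 14 late granule genes (left) and 5 azurophil granule genes (right), in percent, for each of the 16 libraries by treatment and replicate number, with rich libraries in red, intermediate ones in grey and poor ones in blue. Late genes followed the order of the rule in all treatments but rapamycin, where rapamycin 4 at 5.85% lay above rapamycin 2 at 5.49%, while the azurophil share of vehicle 3 and rapamycin 3, 1.69% and 1.27%, lay above that of their rich libraries.

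The azurophil and the later share did not always run together in the libraries between the extremes. The azurophil share averaged 1.20% ± 0.191 in rich and 0.0866% ± 0.0414 in poor libraries (SD, n = 4 each), and the later share 6.54% ± 1.55 in rich and 1.09% ± 0.197 in poor libraries. Vehicle 3 and rapamycin 3 combined the highest azurophil share of their treatment with later shares of only 2.88% and 3.26%. Vehicle 4 and rapamycin 4 had the opposite balance, with azurophil shares of 0.0399% and 0.207% beside later shares of 2.25% and 5.85%. The azurophil share of vehicle 4 lay below that of the poor vehicle library, 0.132%. Even so, vehicle 3 lay above vehicle 4 in both shares. Palbociclib 3 likewise lay above palbociclib 4, with azurophil shares of 0.900% and 0.419% and later shares of 7.78% and 6.15%. Combination 1 and 4 ran in opposite order, as rapamycin 3 and 4 did, with azurophil shares of 0.539% and 0.275% beside later shares of 2.20% and 5.17%. Rich libraries were high in both classes, and the intermediate libraries differed from each other in the balance between them.

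Promoter sequence from RefSeq (build GRCm38.p6) is shown for 2 of the genes that mark the rule, Ngp and Ltf, as both lie in a stretch of chromosome 9 with Camp, another late granule gene. The stretches end before the gene start in the GENCODE annotation, are written on the plus strand, and have capitals where a script found the C/EBP motif TTGCNNAA on either strand. C/EBP factors are known to drive late granule genes. Neither stretch held the PU.1 motif AGAGGAA.

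Ngp, chr9:110419558-110419746: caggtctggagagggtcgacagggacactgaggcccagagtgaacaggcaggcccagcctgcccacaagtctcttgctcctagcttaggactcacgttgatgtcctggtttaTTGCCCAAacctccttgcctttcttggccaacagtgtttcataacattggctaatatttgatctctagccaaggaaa

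Ltf, chr9:111019042-111019270: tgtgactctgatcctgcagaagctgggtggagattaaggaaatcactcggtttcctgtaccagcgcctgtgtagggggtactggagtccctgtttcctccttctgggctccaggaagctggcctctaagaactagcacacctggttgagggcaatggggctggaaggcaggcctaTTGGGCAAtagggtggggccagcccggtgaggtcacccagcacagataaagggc

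Of the 20 granule genes, 17 had a RefSeq promoter window of 250 bases before the start, and 7 of these (41.18%) held the C/EBP motif and 4 (23.53%) the PU.1 motif. Over the 27025 genes with a window, 9.55% held the C/EBP motif and 8.65% the PU.1 motif. Genes outside the granule lists that were higher in rich libraries, described next, had a window for 267 of 373, of which 41 (15.36%) held the C/EBP and 50 (18.73%) the PU.1 motif. A match is a run of letters and not a shown binding site. The granule genes also neighbour each other: Prtn3 and Elane are 3.07 kb apart on chromosome 10 with Prss57 83.5 kb away, S100a8 and S100a9 are 22.6 kb apart on chromosome 3, and on chromosome 9 Camp lies 570 kb from Ngp and Ngp 596 kb from Ltf.

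Depth was similar in both sets of libraries. Total counts ran from 10955889 to 13334492 in rich and from 10194976 to 14163950 in poor libraries, and 18840 to 20418 genes were detected in rich and 18640 to 19364 in poor libraries. Ribosomal protein genes took 4.17% ± 0.702 of the counts in rich and 4.93% ± 0.392 in poor libraries, and mitochondrially encoded genes 0.769% ± 0.393 in rich and 0.577% ± 0.164 in poor libraries (SD, n = 4 each). Kit, a gene that defines the sorted cell, was present in all 8, at 190 to 394 CPM in rich and 394 to 586 CPM in poor libraries. Immunoglobulin genes took 1.03%, 0.0856%, 1.11% and 0.692% of the counts in the rich palbociclib, rapamycin, combination and vehicle libraries. In the poor ones they took 0.0433%, 0.00749%, 0.00308% and 0.329%. Several intermediate libraries lay above the rich one of their treatment. These were palbociclib 3 and 4 at 1.72% and 1.26%, rapamycin 3 at 0.199% and vehicle 3 and 4 at 1.57% and 7.43%. Rapamycin 4 at 0.0325% and combination 1 and 4 at 0.435% and 0.732% lay below it. The part of immunoglobulin genes in the differences that follow was not tested.

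Among the 4 genes that mark the rule, S100a8, a subunit of the calcium-binding protein calprotectin (ENSMUSG00000056054, GRCm38 chromosome 3, 90668978 to 90670035), had 18462, 12534, 14876 and 13299 CPM (counts scaled to the library total, with TMM factors) in the rich palbociclib, rapamycin, combination and vehicle libraries, against 1902, 1456, 2225 and 1885 CPM in the poor ones. Its log2 ratio of rich over poor averaged 2.99 ± 0.25 (SD over 4 treatments). Ngp, the neutrophilic granule protein (ENSMUSG00000032484, chromosome 9, 110419747 to 110423012), had a ratio of 2.64 ± 0.26 and Ltf, lactoferrin (ENSMUSG00000032496, chromosome 9, 111019271 to 111042767), one of 2.33 ± 0.44. These late genes had much the same ratio in each treatment.

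Mpo, myeloperoxidase of the azurophil granule (ENSMUSG00000009350, chromosome 11, 87793581 to 87804413), was less even. It had 7418, 4587, 7847 and 6731 CPM in the rich palbociclib, rapamycin, combination and vehicle libraries, against 520, 261, 35.3 and 551 CPM in the poor ones, a log2 ratio of 4.84 ± 1.98. The poor combination library set it apart, and Elane, neutrophil elastase, with 17.3 CPM there and 186 to 272 CPM in the other poor libraries, and Ctsg, cathepsin G, with 11.8 CPM there and 49.3 to 66.6 CPM in the others, had the same pattern. Prtn3, proteinase 3, did not share it, at 243 CPM in the poor combination library and 150 to 252 CPM in the other poor ones. All 19 genes of the list were at least 2-fold higher in the rich library of every treatment, as the rule all but fixes.

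Outside the granule lists, 15288 genes passed a filter on low counts over all 16 libraries. A gene is counted as differing here where the rich library had at least 2-fold more, or at least 2-fold less, than the poor one in all 4 treatments, on log2 CPM with a prior count of 2. Of these genes 373 (2.44%) were higher and 39 (0.255%) were lower by this rule. By any fold, 2077 (13.6%) were higher in all 4 treatments and 1856 (12.1%) lower. The 4 rich libraries all lay above the 4 poor ones for 869 genes (5.68%) and all below them for 519 (3.39%). The libraries were picked on counts of the same files, so these counts are a description and have no test. The 373 made up 2.61% to 4.17% of the counts of rich and 0.648% to 0.853% of the counts of poor libraries. The median level of the 373 was 25.9 CPM in rich and 4.44 CPM in poor libraries, 223 of them averaged at least 10 CPM over the 8 libraries, and 108 averaged under 1 CPM in poor libraries, so they passed the filter through the libraries where they were high. Of the 39 lower genes, 25 averaged under 1 CPM in rich libraries and 4 averaged at least 10 CPM over the 8.

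Genes of mature neutrophils outside the granules were higher as a group. All 16 genes of the list had higher levels in the rich library in all 4 treatments, beside 13.6% of all genes. Of these 12 were at least 2-fold higher each time, beside 2.44% of all genes. The median log2 ratio was 2.22, against -0.02 for all genes. Trem3, an activating receptor of myeloid cells, had 280, 186, 316 and 167 CPM in the rich palbociclib, rapamycin, combination and vehicle libraries, against 31.8, 20.0, 19.6 and 28.5 CPM in the poor ones (log2 ratio 3.22 ± 0.60). Cxcr2, the chemokine receptor that draws neutrophils out of marrow, had a ratio of 2.82 ± 0.22, and Trem1, a receptor that amplifies inflammatory signals, one of 2.67 ± 0.17. Ly6g, the surface antigen used to sort mouse neutrophils, had 147, 83.1, 61.2 and 168 CPM in rich against 26.1, 18.2, 22.0 and 30.9 CPM in poor libraries in the same order of treatments. The rich libraries lay above the poor ones without overlap for these 4 genes, as 5.68% of all genes did.

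The phagocyte oxidase, which makes superoxide against microbes, had all 6 genes higher in all 4 treatments, beside 13.6% of all genes. Of these 3 were at least 2-fold higher each time, beside 2.44% of all genes, and the median log2 ratio was 1.88. Cybb, its catalytic subunit, had 416, 313, 555 and 185 CPM in the rich palbociclib, rapamycin, combination and vehicle libraries, against 65.3, 26.9, 18.8 and 64.8 CPM in the poor ones. Ncf1, a cytosolic subunit that activates the enzyme, had a ratio of 2.73 ± 0.51. Cyba, the partner of Cybb in the membrane, was nearer to even at 1.37 ± 0.44.

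Among 9 transcription factor genes of the myeloid lineages, 5 were higher in all 4 treatments, beside 13.6% of all genes. These were Gfi1, Cebpe, Cebpd, Spi1 and Cebpa. Gfi1, Cebpe and Cebpd were at least 2-fold higher each time, beside 2.44% of all genes. Gfi1, a repressor needed for granulocyte formation, had 93.6, 61.0, 44.4 and 43.3 CPM in the rich palbociclib, rapamycin, combination and vehicle libraries, against 0.880, 2.81, 5.50 and 5.50 CPM in the poor ones (log2 ratio 4.19 ± 1.67). Cebpe, the factor of late granule genes, had a ratio of 2.82 ± 1.01, Cebpd one of 1.87 ± 0.31, and Spi1, which encodes PU.1, one of 1.38 ± 0.37. The rich libraries again lay above the poor ones without overlap for these 4 genes, beside 5.68% of all genes.

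Genes typical of granulocyte-monocyte progenitors were higher throughout. All 14 were at least 2-fold higher in all 4 treatments, beside 2.44% of all genes. The median log2 ratio was 2.76 and ran from 2.58 to 3.24 by treatment. Ms4a3, a membrane protein known from these progenitors, had 625, 578, 993 and 491 CPM in the rich palbociclib, rapamycin, combination and vehicle libraries, against 37.2, 42.3, 16.2 and 35.3 CPM in the poor ones (4.39 ± 1.03). Clec12a, an inhibitory lectin receptor of myeloid cells, had a ratio of 3.67 ± 0.72, and Igsf6, an immunoglobulin-fold membrane protein of myeloid cells, one of 3.93 ± 0.97. Tyrobp, a signalling adaptor of myeloid receptors, had 575, 577, 570 and 480 CPM in rich against 93.3, 104, 145 and 124 CPM in poor libraries.

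**Figure D2:**
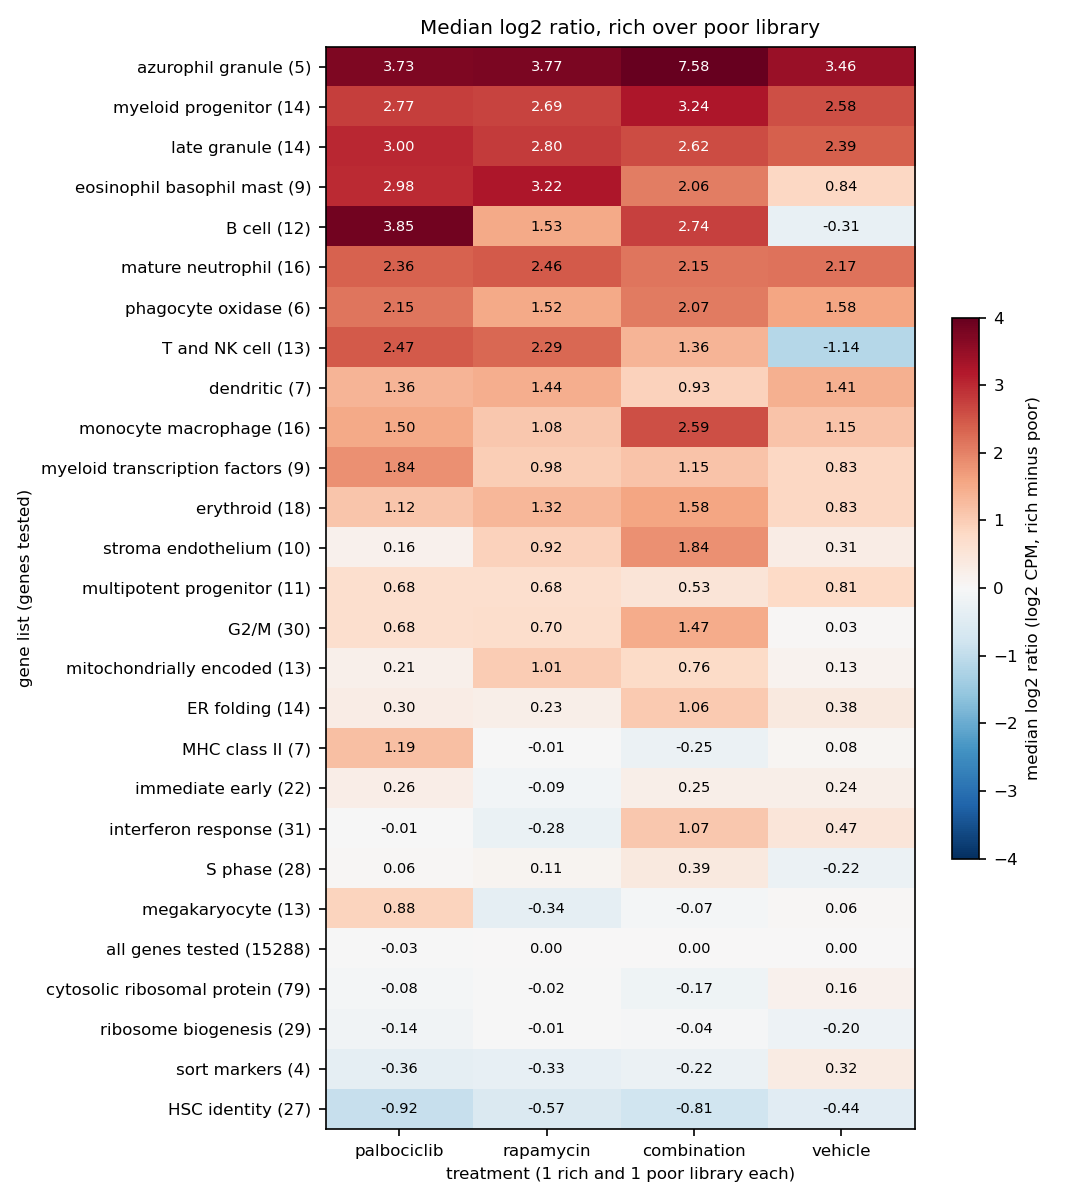
Median log2 ratio of the rich over the poor library within each treatment for each gene list, with the number of genes tested in brackets and red for higher and blue for lower in the rich library; colours end at 4 on either side. The granule, myeloid progenitor, mature neutrophil and oxidase lists were higher in all 4 columns. So were the monocyte, myeloid factor, eosinophil, basophil and mast cell, dendritic, erythroid, stroma, multipotent progenitor, G2/M, endoplasmic reticulum folding and mitochondrially encoded lists. The HSC identity list was lower in all 4, as was the ribosome biogenesis list by less. The B cell list ran from -0.31 in vehicle to 3.85 in palbociclib.

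Marker lists of other blood cells differed to unlike degrees, set against the 13.6% of all genes that were higher and the 12.1% that were lower in all 4 treatments. Of 16 monocyte and macrophage genes 11 were higher in all 4 treatments, 7 by at least 2-fold, beside 2.44% of all genes. Their summed levels were 2198 to 2575 CPM in rich and 295 to 591 CPM in poor libraries. Ly6c2, the antigen of inflammatory monocytes, had 1705, 1553, 1563 and 1593 CPM in the rich palbociclib, rapamycin, combination and vehicle libraries, against 132, 196, 82.7 and 281 CPM in the poor ones. Vcam1, an adhesion molecule of marrow macrophages and stroma, had a ratio of 3.73 ± 0.71, and Ccr2, the receptor that releases monocytes from marrow, ran from 1.02 to 6.79 by treatment. Of 18 erythroid genes 13 were higher in all 4 and 1, Car2, was lower in all 4, but their summed levels, 1064 to 4029 CPM in rich and 1007 to 2931 CPM in poor libraries, overlapped. Of 12 B cell genes 4 were higher in all 4, of 13 T and NK cell genes 3 and of 9 eosinophil, basophil and mast cell genes 5. Klrb1c, a T and NK cell gene, was lower in all 4. The T and NK cell median was -1.14 in vehicle and 1.36 to 2.47 in the other treatments. Of 7 dendritic cell genes 2 were higher in all 4, and of 10 stroma and endothelium genes 2. The median log2 ratio was 2.56 for eosinophil, basophil and mast cell genes and 1.59 for dendritic cell genes. It was also 1.59 for T and NK cell genes, 1.48 for monocyte and macrophage, 1.19 for erythroid and 1.04 for stroma and endothelium genes. On log2 TPM, where the median of all genes was -0.25, these medians were 1.41, 0.49, 0.74, 1.08, 0.74 and 0.29 in that order. Summed levels of the eosinophil, basophil and mast cell list were low and overlapped, at 14.3 to 410 CPM in rich and 7.22 to 16.8 CPM in poor libraries. So did those of the dendritic list, at 17.5 to 112 CPM in rich and 3.80 to 30.8 CPM in poor libraries. Megakaryocyte genes, with 1 of 13 higher and 1 lower, and MHC class II genes, with 0 of 7 either way, were no more often of 1 direction than all genes.

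B cell genes had higher median levels in the rich library in 3 treatments and not in vehicle. Of 12 genes 4 were higher and 0 lower in all 4 treatments, beside 13.6% higher and 12.1% lower of all genes. The medians were 3.85 in palbociclib, 1.53 in rapamycin, 2.74 in combination and -0.31 in vehicle. Ighm, the heavy chain of IgM, had 3459, 303 and 4967 CPM in the rich palbociclib, rapamycin and combination libraries, against 127, 25.3 and 11.8 CPM in the poor ones, but 91.2 CPM in the rich vehicle library against 859 CPM in the poor one. The summed level of the list ran from 707 to 8234 CPM in rich and from 56.9 to 1837 CPM in poor libraries. Ms4a1, which encodes the B cell antigen CD20, was at 0 only in the poor combination library. Pax5 did not pass the filter on low counts.

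HSC identity genes were on the whole lower in the rich libraries, by less than the myeloid genes were higher. Of 27 genes 16 were lower in all 4 treatments and 0 higher, beside 12.1% lower and 13.6% higher of all genes. None was at least 2-fold lower each time, beside 0.255% of all genes. The median log2 ratio was -0.69 and ran from -0.92 in palbociclib to -0.44 in vehicle. Cdkn1c, the cell cycle inhibitor p57 that keeps HSCs quiescent, had 11.4, 26.4, 9.54 and 35.0 CPM in the rich palbociclib, rapamycin, combination and vehicle libraries, against 40.5, 52.9, 35.9 and 74.4 CPM in the poor ones (log2 ratio -1.45 ± 0.47). Its sets did not overlap, as for 3.39% of all genes. Fhl1, a LIM-domain protein gene, had a ratio of -1.13 ± 0.19, and Hoxb5, a homeobox gene that marks long-term HSCs, one of -1.09 ± 0.52. The summed level of the list was 3101 to 4457 CPM in rich and 4351 to 4732 CPM in poor libraries, so the sets overlapped in the sum. Granule genes took 7.13% to 11.01% of the counts of rich libraries, and with them left out of the library sizes the counts of differing genes were 374 higher and 41 lower. Those counts take genes that differ at least 2-fold in all 4 treatments, so they do not bear on the HSC identity list.

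The genes of the 4 sort antigens did not go one way. Kit, which encodes CD117, had 238, 394, 190 and 235 CPM in the rich palbociclib, rapamycin, combination and vehicle libraries, against 433, 586, 394 and 398 CPM in the poor ones (-0.81 ± 0.20). Slamf1, which encodes CD150, had 19.6, 19.8, 21.03 and 29.5 CPM in rich against 41.6, 32.6, 36.9 and 60.2 CPM in poor libraries (-0.91 ± 0.17). Both were lower in the rich library of each treatment, and for Slamf1 the sets did not overlap, beside 3.39% of all genes that were lower without overlap. For Kit the highest rich value, 393.6 CPM in rapamycin, lay just under the lowest poor one, 393.96 CPM in combination. Cd48, the antigen that HSCs lack and multipotent progenitors carry, had 26.7, 21.01, 63.3 and 25.8 CPM in rich against 7.75, 7.23, 9.78 and 6.62 CPM in poor libraries (1.97 ± 0.50). Ly6a, which encodes Sca-1, ran from -0.09 in rapamycin to 1.39 in vehicle.

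**Figure D3:**
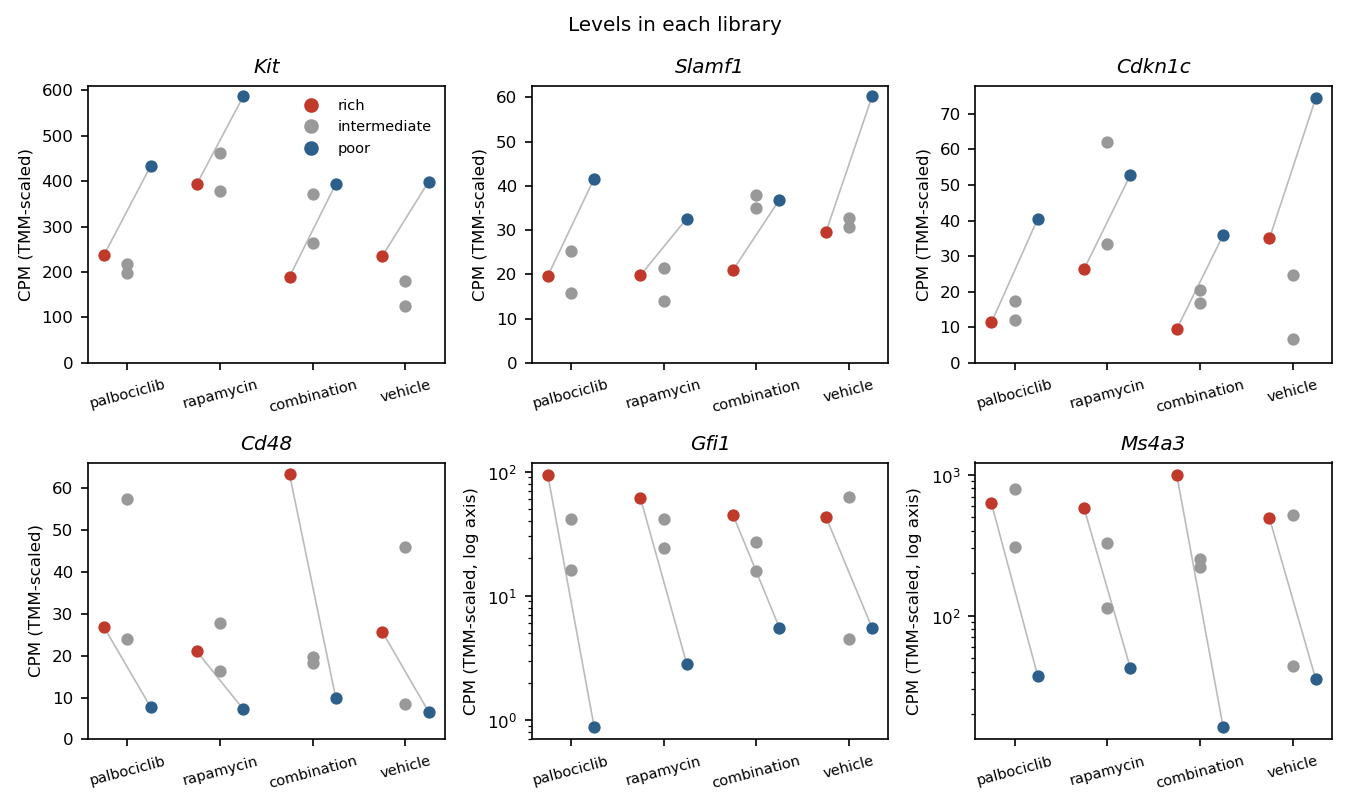
Levels of 6 genes in TMM-scaled CPM for all 16 libraries, by treatment, with the rich (red) and poor (blue) library of a treatment joined by a line and intermediate libraries in grey; the axes of Gfi1 and Ms4a3 are logarithmic. Kit, Slamf1 and Cdkn1c were lower and Cd48, Gfi1 and Ms4a3 higher in the rich library of each treatment, and the intermediate libraries did not always lie between the pair, as for Kit in vehicle, where they had 126 and 180 CPM.

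The intermediate libraries did not always sit between the extremes for Kit and the other stem cell genes. In vehicle, Kit had 235 CPM in the rich library, 126 and 180 CPM in vehicle 3 and 4 and 398 CPM in the poor one. In palbociclib, Kit had 238 CPM in the rich library, 218 and 198 CPM in palbociclib 3 and 4 and 433 CPM in the poor one. The summed level of the HSC identity list in the 8 intermediate libraries ran from 2199 to 4868 CPM, wider than in the rich or the poor set.

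Genes of multipotent progenitors, Cd48 among them, were higher in 6 of 11 members in all 4 treatments and lower in 1, Sox4. Of all genes 13.6% were higher and 12.1% lower, and the median log2 ratio of the list was 0.72. Cd52, a surface glycoprotein of lymphoid and myeloid cells, had a ratio of 2.01 ± 0.34, with 280 to 347 CPM in rich and 59.5 to 104 CPM in poor libraries. Notch1, a receptor of early lymphoid commitment, had one of 1.95 ± 1.00. Cd34 and Flt3, the antigens that define these progenitors, had no common direction, at -0.01 ± 0.90 and 0.71 ± 1.101.

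Cell cycle genes split by phase. Of 30 G2/M genes, which act in mitosis, 15 were higher in all 4 treatments and 0 lower in all 4, none by 2-fold each time, with a median log2 ratio of 0.70. By treatment that median was 0.68 in palbociclib, 0.70 in rapamycin, 1.47 in combination and 0.03 in vehicle. Ube2c, which loads ubiquitin for the anaphase-promoting complex, had 327, 185, 224 and 164 CPM in the rich palbociclib, rapamycin, combination and vehicle libraries, against 151, 84.0, 32.3 and 95.4 CPM in the poor ones (1.46 ± 0.90). Ccnb1, cyclin B1, had a ratio of 1.18 ± 0.79, and Plk1, a mitotic kinase, one of 1.22 ± 0.54. Of 28 S-phase genes 4 (14.3%) were higher and 1 lower in all 4 treatments, near the 13.6% of all genes that were higher, with a median of 0.08. Rrm2, a subunit of ribonucleotide reductase, had a ratio of 1.48 ± 0.75. On log2 TPM, which moved the median of all genes to -0.25, against -0.02 with TMM, the G2/M median was 0.38 with 10 genes higher in all 4, and the S-phase median was -0.20 with 2 genes higher and 9 lower.

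**Figure D4:**
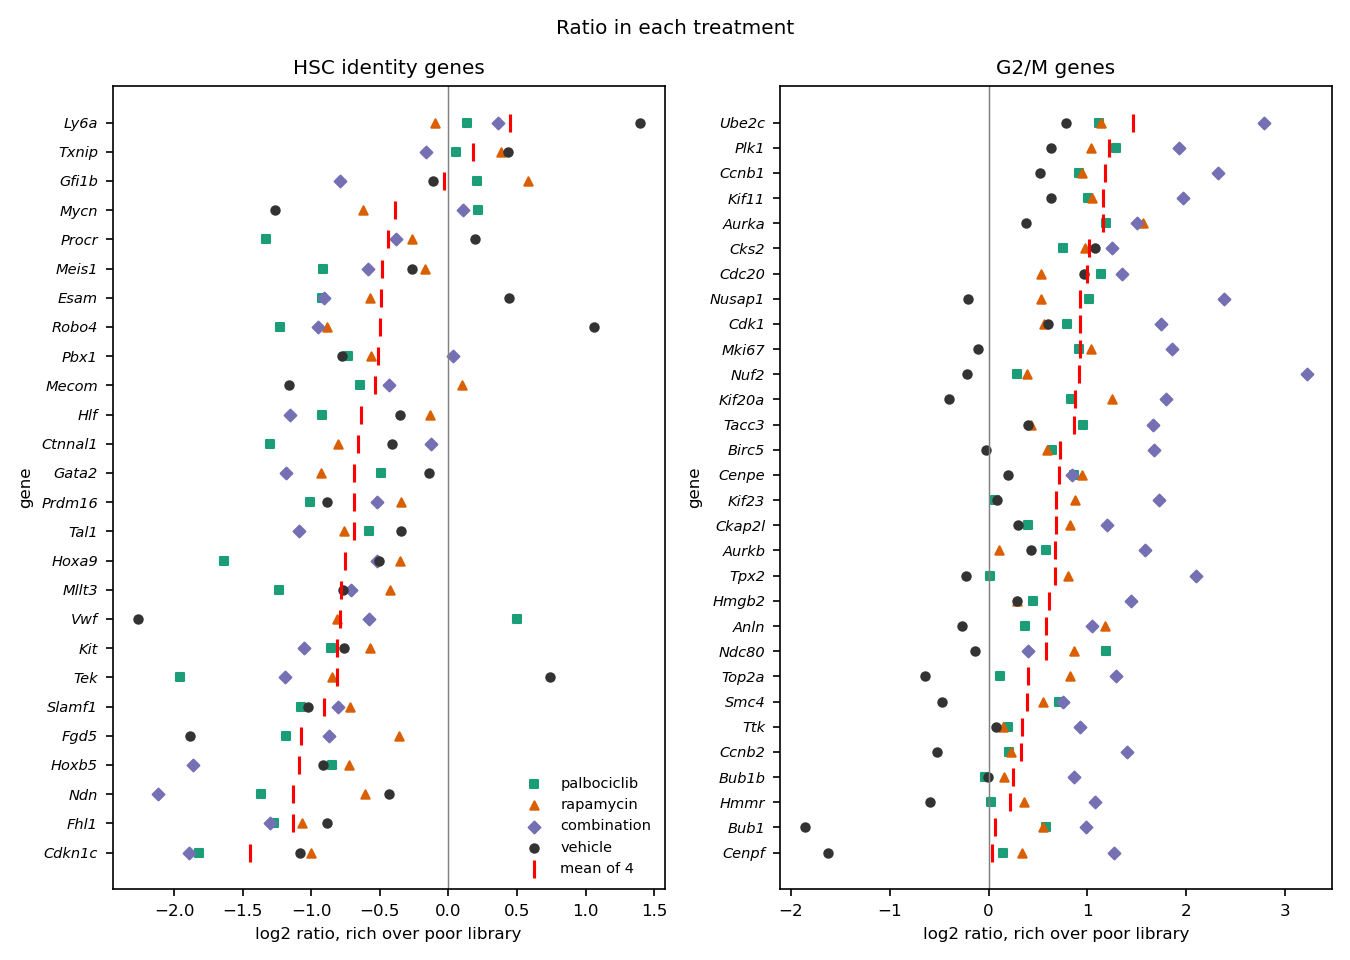
Log2 ratio of the rich over the poor library in each of 4 treatments for 26 of the 27 HSC identity genes (left) and 30 G2/M genes (right), with a red bar for the mean of the 4. Most HSC identity genes lie left of 0 and most G2/M genes right of it, and for G2/M genes the combination pair (diamonds) lies farthest right and the vehicle pair (circles) nearest to 0 or below.

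Other groups showed smaller differences or none beyond those of all genes, of which 13.6% were higher and 12.1% lower in all 4 treatments. Several depended on the scale. Of 14 genes for protein folding in the endoplasmic reticulum 6 were higher in all 4 treatments (median log2 ratio 0.49), and of 29 ribosome biogenesis genes 6 were lower and 0 higher (-0.08). Of 79 cytosolic ribosomal protein genes 4 (5.06%) were higher and 6 (7.6%) lower (-0.03), both below the share of all genes. On log2 TPM 2 folding genes were higher in all 4, with a median of 0.17, and 14 ribosome biogenesis genes were lower, with a median of -0.35. Among 22 immediate early genes 5 were higher and 4 lower in all 4, with a median of 0.23 that was -0.06 on log2 TPM. Nr4a1, an orphan nuclear receptor gene, had 399, 333, 230 and 600 CPM in the rich palbociclib, rapamycin, combination and vehicle libraries, against 615, 725, 413 and 891 CPM in the poor ones (-0.79 ± 0.25). The interferon response list had 4 of 31 genes (12.9%) higher and 2 (6.45%) lower in all 4, no more often than all genes. Only the combination pair stood well apart, with a median of 1.07 there against -0.28 to 0.47 in the other pairs. Ifit1, an antiviral effector, had 39.0 CPM in combination 3 and 0 to 2.73 CPM in the other 7 libraries of the contrast.

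Of the 373 higher genes, 49 were in 1 of 26 gene lists, 39 of these in the neutrophil, oxidase, myeloid factor, progenitor or monocyte lists. The genes of the largest mean ratio that averaged at least 10 CPM were led by antibody genes: Igha, the heavy chain of IgA, had 1147, 46.9, 506 and 882 CPM in the rich palbociclib, rapamycin, combination and vehicle libraries, against 4.40, 0.603, 0.611 and 84.7 CPM in the poor ones. Jchain, the chain that joins IgA and IgM units, had a log2 ratio of 5.85 ± 4.18. Reads of antibody genes can be split between near-identical segments, so single values are uncertain. The ratio of Igha averaged 6.66 and ran from 3.38 to 9.34 by treatment. For both Igha and Jchain the rich and the poor libraries overlapped.

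Genes of other kinds were also among the largest ratios. Prom1, the membrane glycoprotein prominin 1, had 49.4, 38.9, 87.4 and 20.4 CPM in the rich palbociclib, rapamycin, combination and vehicle libraries, against 3.17, 1.67, 0.476 and 1.55 CPM in the poor ones (4.74 ± 1.601). Mgl2, a lectin of macrophages and dendritic cells, had a ratio of 4.68 ± 1.67, Chst13, a carbohydrate sulfotransferase gene, one of 4.49 ± 1.83, and Cldn15, a claudin gene, one of 4.22 ± 0.78. Cst7, which encodes cystatin F, an inhibitor of granule protease activation in immune cells, had 134, 136, 303 and 135 CPM in rich against 13.03, 9.78, 11.8 and 8.68 CPM in poor libraries (3.93 ± 0.55). Abcd2, a peroxisomal transporter, and Mrgpra2a, a receptor gene of the Mas-related family, had ratios of 4.16 ± 2.25 and 4.14 ± 2.32.

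In the other direction 4 genes met the rule for named genes. Nsg1, a neuronal vesicle protein gene, had 5.87, 4.31, 3.39 and 8.47 CPM in the rich palbociclib, rapamycin, combination and vehicle libraries, against 21.2, 19.1, 10.7 and 28.9 CPM in the poor ones (-1.82 ± 0.21). Ttc21b, a gene of transport in cilia, had a ratio of -1.81 ± 0.38, Fzd9, a Wnt receptor gene, one of -1.74 ± 0.56, and Ak1, adenylate kinase 1, one of -1.39 ± 0.23. None of the 39 lower genes was in 1 of these lists.

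The intermediate libraries, which the contrast did not use, allowed a test. In them each gene was fitted on treatment and on the log2 granule share with edgeR's quasi-likelihood test, and the slope is the log2 change per doubling of the share. By this test 0 of 15288 genes (0%) passed a Benjamini-Hochberg adjusted p of 0.05, the lowest adjusted p was 0.850, and 802 (5.25%) had an unadjusted p under 0.05. DESeq2 called 49 genes and limma-voom 1. The fit had 3 residual degrees of freedom, and the shares of the 2 intermediate libraries differed by 0.40 on the log2 scale in palbociclib, 0.40 in rapamycin, 0.97 in combination and 1.03 in vehicle, so that vehicle and combination carried most of the slope. On simulated counts for this fit over 15288 genes, 0% of genes with slopes of 0.5 or 1 were recovered, 24% with a slope of 2 and 52% with a slope of 3.

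The higher genes had positive slopes in the intermediate libraries more often than all genes had. Of the 373 genes, 283 (75.9%) had a positive slope, beside 46.2% of all 15288 genes, and 87 (23.3%) had an unadjusted p under 0.05, beside 5.25% of all. Their median slope was 0.82, against -0.06 for all genes. Among the 265 higher genes that averaged at least 1 CPM in poor libraries, a limit chosen after seeing the data, 216 (81.5%) had a positive slope and 79 (29.8%) that p, beside 46.7% and 5.39% of the 13687 genes at that level. Among the 39 lower genes, 51.3% had a negative slope, beside 53.8% of all genes, and 0 had an unadjusted p under 0.05.

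**Figure D5:**
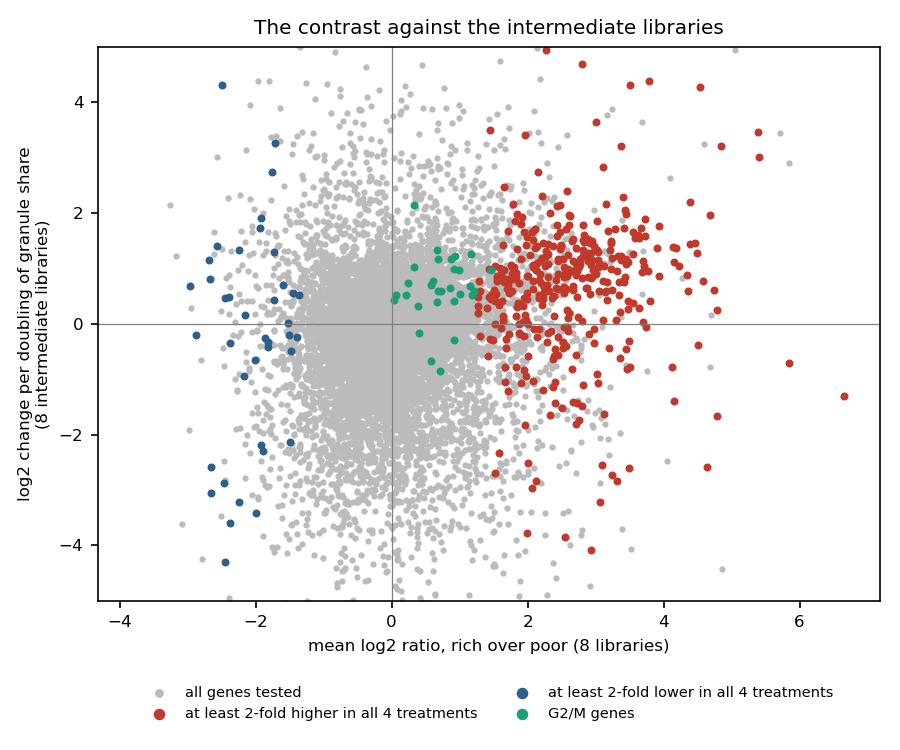
Each gene's mean log2 ratio of rich over poor libraries (x axis) against its log2 change per doubling of the granule share in the 8 intermediate libraries (y axis), for all 15288 genes in grey, the 373 higher genes in red, the 39 lower genes in blue and the 30 G2/M genes in green; 127 genes fall outside the y axis. Most red points lie above 0, the blue ones lie on both sides of it, and 26 of the 30 G2/M points lie above it.

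The list counts that follow stand beside 46.2% positive and 53.8% negative slopes over all genes, of which 5.25% had an unadjusted edgeR p under 0.05. By list, slopes were positive for 13 of 14 progenitor genes, 14 of 16 mature neutrophil genes and 6 of 6 oxidase genes, with 6, 6 and 0 at an unadjusted p under 0.05 and 0 called. G2/M genes had positive slopes in 26 of 30 members, 14 of them at an unadjusted p under 0.05, with a median of 0.63. With the late granule share in place of the whole share that count of 14 was 3, with 28 positive. With the share on a linear scale it was 9, with 26 positive. Without vehicle 3 or without vehicle 4, in effect the same fit, 24 of the G2/M slopes were positive. Such a fit holds no vehicle pair, so only the signs of its slopes are given, and they do not show whether the small p-values of G2/M genes remain. HSC identity genes did not follow, with positive slopes in 17 of 27 and a median of 0.24, opposite to their direction between the rich and poor libraries, and 9 of 27 positive without vehicle 3 or vehicle 4. All 4 sort antigen genes had negative slopes, beside 53.8% of all genes, with 0 at an unadjusted p under 0.05. A count of 4 genes is too small to set apart from that share. These were -0.93 for Cd48, -1.22 for Ly6a, -0.36 for Kit and -0.01 for Slamf1. For Cd48 the sign was opposite to its ratio of rich over poor. Ribosomal protein genes had negative slopes in 77 of 79, beside a ribosomal share of 2.55% in vehicle 3, the lowest of its treatment. Igha and Jchain, both higher in the rich libraries, had slopes of -1.30 and -0.70, neither called. B cell genes had negative slopes in 10 of 12, beside an immunoglobulin share of 7.43% in vehicle 4 and 1.57% in vehicle 3. The part of these shares in the slopes was not tested.

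The smallest p-values of positive slopes belonged to Il1rn, Hdc, Ccl6, C5ar1 and A530064D06Rik, none of which was called. Il1rn, the interleukin 1 receptor antagonist, had a slope of 2.12 ± 0.28 (SE, edgeR adjusted p = 0.850), with 52.5 and 29.2 CPM in palbociclib 3 and 4, 22.0 and 43.2 CPM in rapamycin 3 and 4, 17.1 and 58.5 CPM in combination 1 and 4 and 39.3 and 7.37 CPM in vehicle 3 and 4. In each pair the library with more granule RNA had the higher value, which the choice of the gene by its smallest p all but fixes. Hdc, histidine decarboxylase, which makes histamine in granulocytes, had a slope of 1.31 ± 0.21, Ccl6, a chemokine of myeloid cells, one of 1.93 ± 0.31, and C5ar1, the receptor of complement C5a, one of 1.501 ± 0.25. In the rich against the poor libraries these genes had log2 ratios of 2.43 ± 0.17 for Il1rn, 2.27 ± 0.14 for Hdc, 1.92 ± 0.59 for Ccl6 and 2.66 ± 0.30 for C5ar1. The smallest p-values of negative slopes, also not called, were those of Ighv1-64, an antibody segment, Tgfb1, transforming growth factor beta 1, Fosb, an immediate early factor, Tesk1, a kinase gene, and Ephx1, an epoxide hydrolase gene.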

How the data were processed

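RNA was measured in 16 libraries of sorted mouse HSCs. The submitters' processing notes name STAR 2.5.3a, RSEM 1.3.0, SAMtools 1.3 and build mm10. The authors deposited estimated counts, which RSEM need not give as whole numbers and which were rounded here, and log2 values of TPM + 1, used only as an alternative. Symbols came from GENCODE M21; 224 of 50686 genes had none. R 4.3.3 with edgeR 4.0.16 kept 15308 genes by filterByExpr (minimum count 10, minimum total 15), scaled by TMM. Total counts were 10133860 to 15328830. Within treatments, replicates correlated at 0.843 to 0.958 in log2 CPM.

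The libraries, members and 26 gene lists were chosen with earlier results of these data known, among them the relation of G2/M genes to the granule share, so the lists are no independent support. Rich and poor libraries were compared within treatments without a test. The fit of the intermediate libraries used glmQLFit and glmQLFTest on treatment and log2 granule share, adjusted over all genes outside the granule lists, and was tested on simulated data, where 5 unchanged genes were called. The GENCODE build, GRCm38, is that of mm10. Genes named outside the granule lists were up to 15 per direction of largest mean ratio among differing genes with at least 10 CPM over the 8 libraries, without predicted genes and pseudogenes, up to 4 per list of largest ratio with at least 5 CPM, up to 5 per direction of smallest p and the 4 sort antigens. Ly6g, Tyrobp, Cebpa, Cd34, Flt3, Car2, Pax5 and Sox4 were named from their lists after their values were seen. Some members of the HSC identity and B cell lists are counted but not reported by name. Alternatives with DESeq2 1.42.0 and limma 3.58.1 and other settings are given in the closing section.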

Additional observations from a re-analysis of the deposited data

Results flagged for a closer look

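Outlying libraries were looked for in 88 groups of 4 libraries, of which 4 were marked because 1 library lay far from the other 3. Chance marks about 1 in 20 such groups. The ribosomal protein share was 2.547% in vehicle 3 and 4.736% to 5.063% in the other vehicle libraries. The haemoglobin share was 0.1317% in rapamycin 2, the rich library, and 0.03575% to 0.04756% in the other rapamycin libraries. The mean log2 CPM of monocyte and macrophage genes was 1.774 in combination 2 and 3.534 to 3.696 in the other poor libraries, and combination 2 was also the library in which Mpo, Elane and Ctsg were lowest of the poor set. The mean log2 CPM of B cell genes was 6.035 in palbociclib 1 and 3.585 to 3.856 in the other rich libraries.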

How the results depend on the processing

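The rich and poor libraries were the extremes of their treatment in 8 of 8 cases by all granule genes and in 5 by azurophil genes alone. Against 373 higher and 39 lower genes, a 1.5-fold limit gave 643 and 204, a 3-fold limit 187 and 6, and log2 TPM 186 and 35, of which 9 lower genes were shared with the 39. On log2 TPM 21 of 27 HSC identity genes were lower in all 4 treatments, against 16 with TMM. Leaving out the pair of 1 treatment in turn gave 471 to 660 higher and 132 to 151 lower genes, the most without the vehicle pair, since fewer pairs had to meet the limit. With vehicle 3 and rapamycin 3 as the rich libraries, chosen after seeing the data, 315 were higher and 104 lower, of which 206 and 15 were shared with the 373 and 39. With rapamycin 4, also chosen then, 317 and 43 differed and 284 and 18 were shared. Other scalings, filters and prior counts kept both counts within 1.5 times.

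For the slope in intermediate libraries, against 0 genes called and 802 at an unadjusted p under 0.05, DESeq2 called 49 with 1466 at that p, limma-voom 1, the fit with no filter 1, and the azurophil share, added after seeing the data, 17 with 3430. The late share gave 252 and the share on a linear scale 428 at that p. Leaving out 1 library in turn gave 0 to 2 calls and 373 to 1477 at that p; 2 were called without vehicle 3 and 2 without vehicle 4, where 396 and 393 had that p. Without palbociclib 3 or 4 that number was 373 and 376, and without rapamycin 3 or 4 it was 1477 and 1463. The percent of higher genes with a positive slope was 57.9 to 79.6 over these fits of the slope. With the replicate number as a block 1 gene was called, 884 had that p and 66.0% of the higher genes had a positive slope. Same-numbered libraries of different treatments deviated together only weakly (mean correlation 0.0479, from -0.210 to 0.348 over 24 pairs), so the numbers were not taken to pair them. The cause of these differences was not tested. With 3 residual degrees of freedom, simulated slopes of 1 or less were not recovered.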

Other observations

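Eosinophil genes set 1 rich library apart from the other 3. Epx, eosinophil peroxidase, had 108 CPM in rapamycin 2 and was at 0 in the other 7 rich and poor libraries. Prg2, the major basic protein of eosinophil granules, had 251 CPM in rapamycin 2, 4.75 to 8.09 CPM in the other rich libraries and 0.815 to 3.08 CPM in the poor ones. Among the intermediate libraries Epx reached 90.5 CPM in vehicle 3, 44.0 CPM in combination 4 and 36.0 CPM in rapamycin 4, each the library of its pair with more granule RNA. Cxcl12, the chemokine of marrow stroma, had 277 CPM in rapamycin 2 and 27.9 to 43.2 CPM in the other rich libraries, against 9.99 to 53.7 CPM in the poor ones. Intermediate libraries also reached such levels, with 288 CPM in rapamycin 3, 220 CPM in combination 1, 146 CPM in vehicle 3 and 14.7 to 99.6 CPM in the others.

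Antibody genes differed in class between rich libraries. Ighg2b, the heavy chain of IgG2b, had 1486 CPM in vehicle 2 and 2.08 to 4.62 CPM in the other rich libraries, against 0 to 1.98 CPM in the poor ones. Its level was not particular to vehicle 2, with 5268 CPM in vehicle 4, 773 CPM in vehicle 3, 219 CPM in palbociclib 4 and 0.159 to 71.9 CPM in the other intermediate libraries. The mitochondrially encoded gene mt-Co3, a subunit of cytochrome c oxidase, had 0.103 CPM in combination 3 and 62.0 to 200 CPM in the other rich libraries, against 99.7 to 263 CPM in the poor ones. Whether the assignment of reads set the value in combination 3 was not tested. With the azurophil share in place of the whole granule share, an alternative added after seeing the data, the slope of Vcam1 was 0.96 ± 0.07 (SE, edgeR adjusted p = 0.0165), and 14 of the 17 genes called had negative slopes, among them the antibody genes Ighe and Ighg1. The azurophil share was 1.69% in vehicle 3 and 0.0399% in vehicle 4, the widest gap between intermediate libraries of a treatment, so vehicle carried most of these slopes. Immunoglobulin genes took 1.57% of the counts in vehicle 3 and 7.43% in vehicle 4, and their part in these slopes was not tested. In the fit on the azurophil share progenitor genes had positive slopes in 13 of 14 members and mature neutrophil genes in 7 of 16, beside 44.8% of all genes.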
